A study of Mus musculus with 54 samples.

Results

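The 4 Hox clusters of the mouse genome were followed through a directed differentiation of embryonic stem cells toward heart muscle. The cells were of the 129/Ola strain, and the labels give no genotype that separates the groups. Culture form and growth factors differ between ESC and the later stages, as given below. They cannot be told apart from stage or time in culture. Embryonic stem cells (ESC) were taken at day 0, mesoderm-stage cultures (MES) at day 4, cardiac precursor cultures (CP) at day 5.3 and cardiomyocyte cultures (CM) at day 10. The protocol of the later stages used embryoid bodies in serum-free medium with Activin A, BMP4 and VEGF. Basic FGF and FGF10 followed after plating. Whether the MES cultures at day 4 had been plated and had received basic FGF or FGF10 is not given here. The labels describe no sort of the cells. Chromatin immunoprecipitation with sequencing was used for the histone marks H3K27me3, H3K4me3, H3K4me1 and H3K27ac and for RNA polymerase II phosphorylated on serine 5 (RNAPII Ser5P), with 1 to 3 libraries per mark and stage.

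The clusters were chosen by position in the mm9 genome: HoxA at chr6:52100001-52220000, HoxB at chr11:96045001-96240000, HoxC at chr15:102740001-102875000 and HoxD at chr2:74490001-74610000. Of 1590704 enriched regions in the 46 lists, 3904 overlapped these windows, namely 967 in HoxA, 1276 in HoxB, 811 in HoxC and 850 in HoxD. The windows are of 120 kb, 195 kb, 135 kb and 120 kb, and each was read from its 3′ end, where the genes of low number lie, in 114 steps of 5 kb in all. By the order of genes in RefSeq, HoxA runs through 10 member genes from Hoxa2 through Hoxa3, Hoxa4, Hoxa5, Hoxa6, Hoxa7, Hoxa9, Hoxa10 and Hoxa11 to Hoxa13. HoxB runs through 10 from Hoxb1 through Hoxb2, Hoxb3, Hoxb4, Hoxb5, Hoxb6, Hoxb7, Hoxb8 and Hoxb9 to Hoxb13. HoxC runs through 9 from Hoxc4 through Hoxc5, Hoxc6, Hoxc8, Hoxc9, Hoxc10, Hoxc11 and Hoxc12 to Hoxc13, and HoxD through 9 from Hoxd1 through Hoxd3, Hoxd4, Hoxd8, Hoxd9, Hoxd10, Hoxd11 and Hoxd12 to Hoxd13. All 38 member genes matched RefSeq, whose build is not mm9, so no gene is placed at a step and results are given by distance from the 3′ end.

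Hox genes encode homeodomain transcription factors that give cells their position along the body axis. Within a cluster, genes at the 3′ end are switched on earlier and nearer the head than genes at the 5′ end, and in the heart field Hoxb1 marks precursors of its posterior part. Polycomb repressive complex 2 places H3K27me3 over silent Hox clusters as a broad domain; H3K4me3 marks promoters, H3K4me1 marks enhancers and the flanks of promoters, H3K27ac marks active promoters and enhancers, and RNAPII Ser5P marks polymerase at the start of transcription. Stretches that hold both H3K4me3 and H3K27me3 are called bivalent and are typical of Hox promoters in stem cells.

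Polycomb and H3K4me3 are both known to be drawn to DNA rich in CpG, so the promoter of the first member in cluster order for which RefSeq holds one (GRCm38.p6) is printed for each cluster, as 250 bases before and 50 after the annotated start, 5′ to 3′, with each CpG in capitals. These sequences belong to another build than the regions below and were not set against them.
Hoxa2, chr6:52164782-52165081, minus strand: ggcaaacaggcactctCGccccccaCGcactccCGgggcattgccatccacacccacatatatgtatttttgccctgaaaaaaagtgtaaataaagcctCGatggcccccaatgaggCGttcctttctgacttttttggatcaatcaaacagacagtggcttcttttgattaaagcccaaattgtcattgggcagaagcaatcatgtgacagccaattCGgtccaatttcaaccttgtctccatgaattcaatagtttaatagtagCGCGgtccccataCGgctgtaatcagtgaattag
Hoxb1, chr11:96365508-96365807, plus strand: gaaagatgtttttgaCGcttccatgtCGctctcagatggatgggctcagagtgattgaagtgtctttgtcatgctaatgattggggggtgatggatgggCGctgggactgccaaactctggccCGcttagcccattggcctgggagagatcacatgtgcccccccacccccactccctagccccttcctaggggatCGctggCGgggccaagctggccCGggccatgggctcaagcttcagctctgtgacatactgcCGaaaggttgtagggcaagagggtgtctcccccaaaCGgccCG
Hoxc4, chr15:103034145-103034444, plus strand: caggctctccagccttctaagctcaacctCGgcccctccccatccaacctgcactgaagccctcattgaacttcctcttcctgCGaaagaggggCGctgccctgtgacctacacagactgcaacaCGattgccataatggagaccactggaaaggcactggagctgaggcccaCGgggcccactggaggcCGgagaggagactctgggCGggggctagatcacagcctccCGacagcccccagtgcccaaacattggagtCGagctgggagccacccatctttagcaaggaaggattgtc
Hoxd1, chr2:74762730-74763029, plus strand: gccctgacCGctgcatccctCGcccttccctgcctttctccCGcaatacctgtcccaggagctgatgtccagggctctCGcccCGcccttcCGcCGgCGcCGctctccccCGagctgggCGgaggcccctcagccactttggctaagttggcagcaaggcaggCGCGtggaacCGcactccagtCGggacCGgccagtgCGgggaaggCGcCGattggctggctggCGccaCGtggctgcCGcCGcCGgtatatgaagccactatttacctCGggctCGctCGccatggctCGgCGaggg
They held 9, 10, 9 and 29 CpG, so the Hoxd1 promoter stood apart from the other 3. RefSeq gave 24 promoter sequences for 22 of the 38 members, with 4 to 45 CpG and a median of 14.5, against a median of 7 over all 32851 promoters, with quartiles of 3 and 20. A GC content of at least 50% together with a ratio of observed to expected CpG of at least 0.6 was met by 11 of the 24 (45.8%) and by 33.5% of all promoters. The motif TGATNNAT, searched on both strands as a form of the joint site of PBX and HOX proteins, was found in 4 of the 24 (16.7%), among them Hoxa2 and Hoxb1, and in 8.85% of all promoters.

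The clusters also encode microRNAs, which are shown because their genes lie among the Hox genes and so within the DNA described here. Capitals mark the seed, bases 2 to 8.
miR-10a-5p, HoxB, chromosome 11: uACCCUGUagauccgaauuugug
miR-10b-5p, HoxD, chromosome 2: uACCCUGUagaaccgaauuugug
miR-196a-5p, HoxB and HoxC, chromosomes 11 and 15: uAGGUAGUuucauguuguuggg
miR-196b-5p, HoxA, chromosome 6: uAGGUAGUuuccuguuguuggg
The miR-10 pair shares its seed and differs at 1 of 23 bases. The miR-196 pair shares another seed and differs at 1 of 22 bases.

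The lists differ in size between libraries, and no sequencing depth is given. They held 2929 to 38392 regions for H3K27me3, 21264 to 54528 for H3K4me3, 31571 to 96999 for H3K4me1, 25170 to 73186 for H3K27ac and 11332 to 48837 for RNAPII Ser5P. The H3K27me3 libraries ESC replicate 3 and CM replicate 3 stood apart, with 3252 and 2929 regions over 0.477 and 0.411 Mb, where the other 9 lists of that mark covered 5.83 to 29.7 Mb. Both sparse lists still placed 218 and 190 regions in the Hox windows, and the main results that rest on them are given with and without them. The H3K27ac libraries of CM carry a cell type label of embryonic stem cells, while their titles, source names and time point of day 10 give CM; they were used as CM, and every H3K27ac value of CM rests on that. The labelled cell types could not be checked against marker genes, since no gene can be placed in mm9 here. The cultures were profiled in bulk, so a mark on fewer cells and a weaker mark on all cells cannot be told apart.

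H3K27me3 lay over most of every cluster at every stage outside the sparse libraries, with its broadest cover at MES and CP. In HoxA it covered 77.1% of the window in ESC replicate 2, 78.9, 96.4 and 76.5% in the MES libraries, 82.3, 89.2 and 74.4% in the CP libraries, and 75.9 and 77.1% in CM replicates 1 and 2. In HoxB it covered 54.3% in ESC replicate 2, 58.8, 71.2 and 51.4% at MES, 72.4, 65.2 and 50.96% at CP, and 57.5 and 52.9% in the first pair of CM libraries. The HoxC values were 73.2% in ESC replicate 2, 80.5, 98.1 and 82.5% at MES, 90.4, 99.5 and 91.7% at CP, and 78.6 and 82.2% at CM. HoxC was thus the most completely covered cluster at CP, where all its libraries lay above those of HoxA, HoxB and HoxD in the same list.

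In HoxD, H3K27me3 covered 68.6% in ESC replicate 2, 65.8 to 87.7% at MES, 78.0 to 88.7% at CP, and 65.4 and 73.8% in CM replicates 1 and 2. The sparse ESC replicate 3 and CM replicate 3 covered 3.12 to 8.06% of any cluster. With them, the HoxC mean was 39.4 ± 47.8% at ESC (SD, n = 2), 87.0 ± 9.65% at MES (n = 3), 93.9 ± 4.91% at CP (n = 3) and 55.99 ± 42.3% at CM (n = 3).

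Stages were compared by an exact permutation test of the stage labels over the libraries of a mark, two-sided by construction, with Benjamini-Hochberg adjustment over the 20 combinations of cluster and mark. For H3K27me3 the adjusted p lay between 0.431 and 0.471 over the 4 clusters, and none of the 4 had an unadjusted p under 0.05; over 120 kb tiles of the genome that hold the mark, 7.45% had one. Libraries of this mark with the same replicate number deviate together, with r from 0.238 to 0.752. Those of different number reached r = 0.613, so the ranges overlap. The exact test with labels permuted only within replicate number gave for HoxC an adjusted p = 0.0347, while the other 3 clusters gave 0.0694 to 0.100. Without the sparse libraries the HoxC means were 73.2, 87.0, 93.9 and 80.4%, with an adjusted p = 0.404 by the same exact test, and the HoxA mean was 77.1% at ESC and 76.5% at CM. HoxC exceeded the mean of the other 3 clusters in the same library by 2.88 points at ESC, 14.1 at MES, 18.3 at CP and 9.81 at CM on average. The exact test of stages on this difference gave p = 0.0413 and an adjusted p = 0.165 over 8 tests. When the sparse lists were left out the difference was 6.55 points at ESC and 13.3 at CM, with an adjusted p = 0.343 by the exact test.

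**Figure D1:**
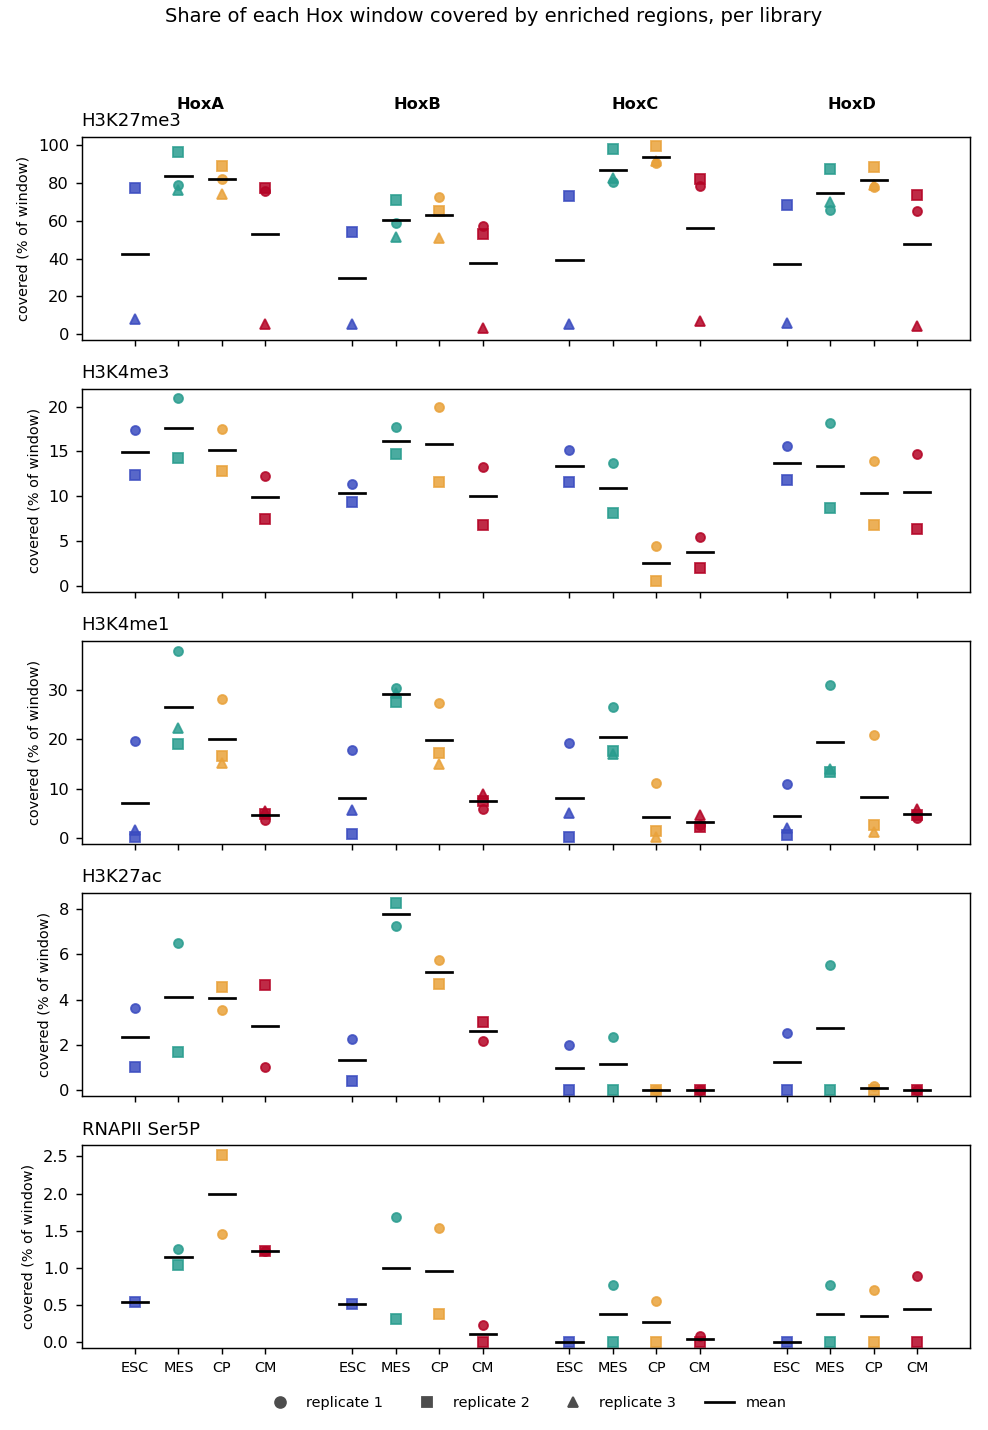
Share of each Hox window covered by enriched regions (y axis, % of the window) for 5 marks (rows), by cluster and stage (x axis); each point is 1 library, its shape the replicate number, its colour the stage, and black bars are means. H3K27me3 covers over 50% of every cluster in 9 of 11 libraries, and H3K27ac at CP and CM is found in HoxA and HoxB but covers 0% of HoxC.

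In the libraries with the broadest cover the HoxC domain was close to a single unbroken region. In CP replicate 2 a region of 138 kb spanned nearly the whole HoxC window (chr15:102735126-102873525), the longest H3K27me3 region in that list, and in MES replicate 2 by one of 121 kb, again the longest in its list. The longest region of the list lay in HoxB in MES replicate 1, at 28.1 kb, and in CP replicate 1, at 45.05 kb, and in HoxD in CP replicate 3, at 27.7 kb. Among the 20 longest H3K27me3 regions of a list, 8 lay in the clusters in ESC replicate 2, 3 to 7 in the MES libraries, 1 to 8 in the CP libraries and 0 to 5 in the CM libraries, and 0 in ESC replicate 3. No list of another mark had a Hox region among its 20 longest.

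H3K27me3 was also compared between the 3′ and the 5′ side of each window, divided at its midpoint. In ESC replicate 2 the 3′ side of HoxB was covered 55.4 percentage points more than the 5′ side, and in ESC replicate 3 the difference was 8.46 points. At MES it was 16.1, 23.8 and 6.72 points, at CP −13.3, −9.67 and −4.44 points, and at CM 4.79, 4.87 and −0.54 points. All CP libraries were below 0 and all ESC and MES libraries above it. The 3′ side was covered 81.97% in ESC replicate 2, 54.7 to 83.1% at MES and 48.7 to 65.8% at CP. The 5′ side was covered 26.6% in ESC replicate 2, 48.03 to 59.3% at MES and 53.2 to 79.1% at CP. The sparse ESC replicate 3 had 9.59 and 1.13%. The change of sign thus went with higher cover of the 5′ side at CP, not only with lower cover of the 3′ side. On the difference of the sides the exact permutation test of the stage labels gave p = 0.0386. The adjusted p was 0.154 over 8 tests of this kind (4 clusters for H3K27me3 and H3K27ac). With labels permuted within replicate number the adjusted p of the exact test was 0.0139. Without the sparse libraries the means were 55.4, 15.5, −9.14 and 4.83 points; the adjusted p was then 0.00635, but ESC is a single library there, so the spread comes from the other stages alone and the value at ESC has no replicate.

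In HoxA and HoxD the 3′ side was covered less than the 5′ side in every library. The mean differences at ESC, MES, CP and CM were −11.9, −9.07, −20.8 and −15.1 points in HoxA and −17.0, −21.4, −18.8 and −12.4 points in HoxD, with an adjusted p = 0.816 in both by the exact permutation test. With the sparse lists left out the ESC and CM values were −17.2 and −19.9 points in HoxA and −28.1 and −17.0 points in HoxD, so that ESC replicate 2 of HoxD lay beyond the means of the other stages. In HoxC the sides differed by at most 5.63 points in any library, with an adjusted p = 0.318 by the same exact test. Whether HoxB differs from the other clusters in this measure was not tested.

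**Figure D2:**
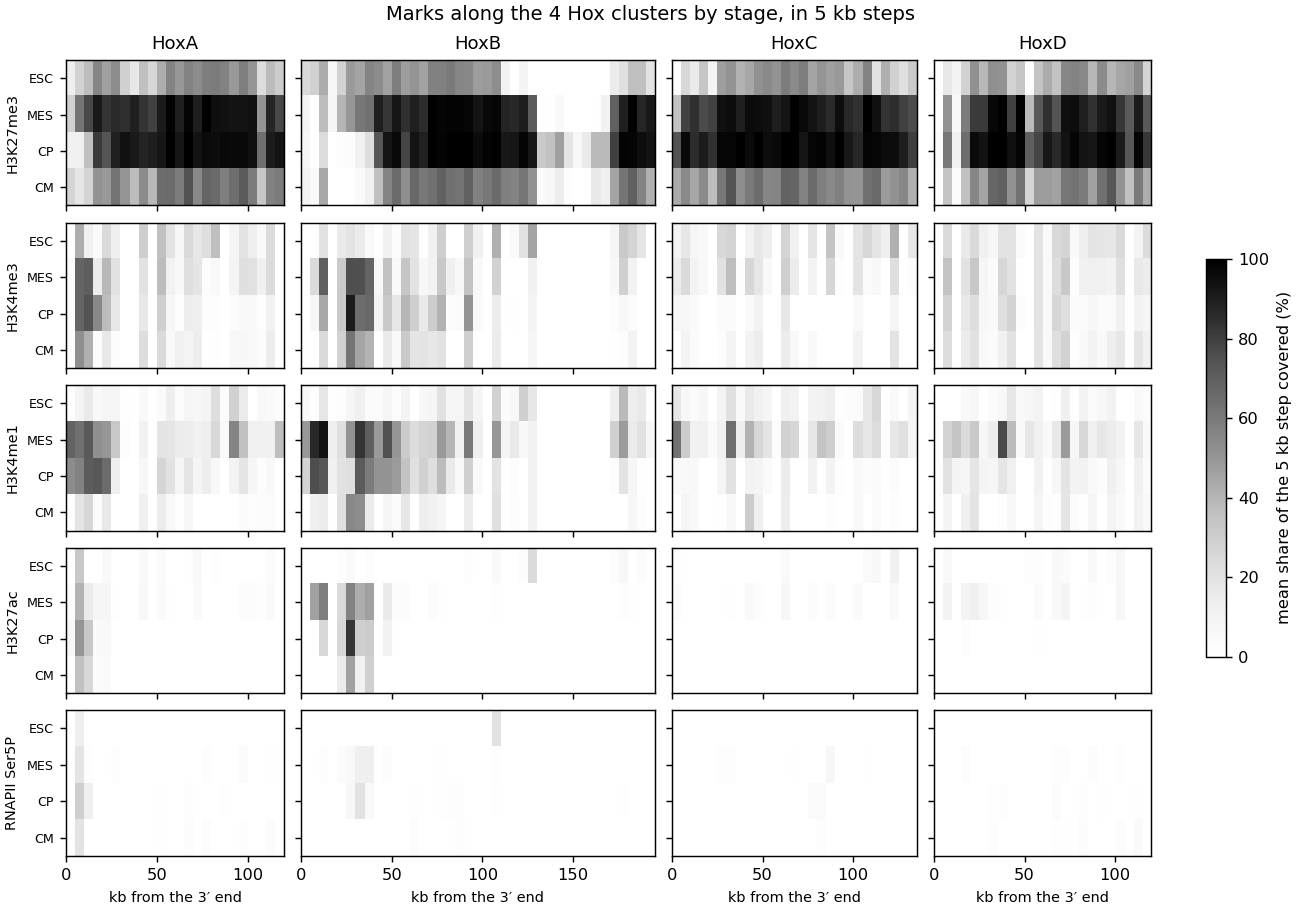
Mean share of each 5 kb step covered (grey scale, %) along the clusters from the 3′ end (x axis, kb), by mark (rows of panels) and stage (lines within a panel). At MES and CP H3K27ac lies mostly near the 3′ ends of HoxA and HoxB, while at ESC HoxB has H3K27ac at 125 to 130 kb (23.5%) and RNAPII Ser5P at 105 to 110 kb (20%). H3K27me3 covers most of each cluster, and HoxB has a stretch from 130 to 170 kb with no mark but H3K27me3.

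The 3′ part of HoxB held the longest run of acetylated steps. Steps 5 to 8, which lie 20 to 40 kb from the 3′ end (chr11:96200001-96220000), were the steps of the 4 clusters with H3K27ac in every library of MES, CP and CM, other than HoxA step 2; they were picked by that mark after the data had been seen, so the H3K27ac values are a description. H3K27ac covered 4 and 0% of this interval in the ESC libraries, 39.5 and 45.2% at MES, 44.2 and 39.6% at CP, and 21.2 and 29.5% at CM. The ESC libraries were the lowest, and the CM libraries lay between them and the rest.

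The other marks were not used to choose these steps. Marks that tend to occur with H3K27ac, or apart from it, may still follow that choice, so their values are a description too. H3K4me3 covered 17 and 10.5% at ESC, 57.6 and 67% at MES, 70.4 and 56.4% at CP, and 48 and 39.6% at CM. The ESC libraries did not overlap those of the later stages, but how often this holds elsewhere in the genome was not counted. H3K4me1 covered 18.9, 0 and 0% at ESC, 51.1 to 59.4% at MES, 38.2 to 49.1% at CP and 29.6 to 47% at CM. RNAPII Ser5P was found in 0% of the interval in the ESC library, in 13.2 and 3.12% at MES, in 12 and 3.75% at CP, and in 0% in both CM libraries.

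At MES, CP and CM H3K27me3 covered less of this interval than of the DNA 5′ of it, which is a description, since the interval was picked by H3K27ac. It covered 82.4 and 6.62% of the 20 kb at ESC, 50, 91.6 and 18% at MES, 24.5, 3 and 0% at CP, and 9.25, 2 and 0% at CM. In the 90 kb 5′ of it, from 40 to 130 kb (chr11:96110001-96200000), it covered 75.1 and 8.94% at ESC, 83.7 to 99% at MES, 85.1 to 99.2% at CP, and 87.1, 86.3 and 5.75% at CM. Every MES, CP and CM library had less H3K27me3 in the interval than in these 90 kb, as had ESC replicate 3. ESC replicate 2 had more. On the 3′ side the step at 15 to 20 kb had 0% in every CP library and a mean of 0.33% at CM. It had means of 6.25% at ESC and 7.83% at MES. At 5 to 15 kb the mark covered 63.75 and 7.25% at ESC and 21.25, 29.25 and 5.5% at MES. There it covered 19.75, 15 and 0% at CP and 42.75, 29.75 and 0% at CM, so it was not low in CM replicates 1 and 2. The same 90 kb held H3K27ac over 0 to 2.64% in all 8 libraries of that mark.

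Where regions less than 1 kb apart are joined, the longest H3K27me3 stretch of HoxB began 21.1 kb from the 3′ end in ESC replicate 2 and 32, 18.98 and 39.2 kb from it in the MES libraries. It began at 36.6, 40.1 and 67.2 kb in the CP libraries, and at 36.98 and 44.3 kb in CM replicates 1 and 2. The start of this stretch thus lay nearer the 3′ end in ESC replicate 2 and MES replicates 1 and 2 than in any CP library or either of these CM libraries. It is not the edge of all H3K27me3. In CP replicate 3 the stretch began at 67.2 kb, though every CP library held the mark in each step from 40 to 65 kb. The sparse lists have no stretch of over 5.4 kb in HoxB.

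**Figure D3:**
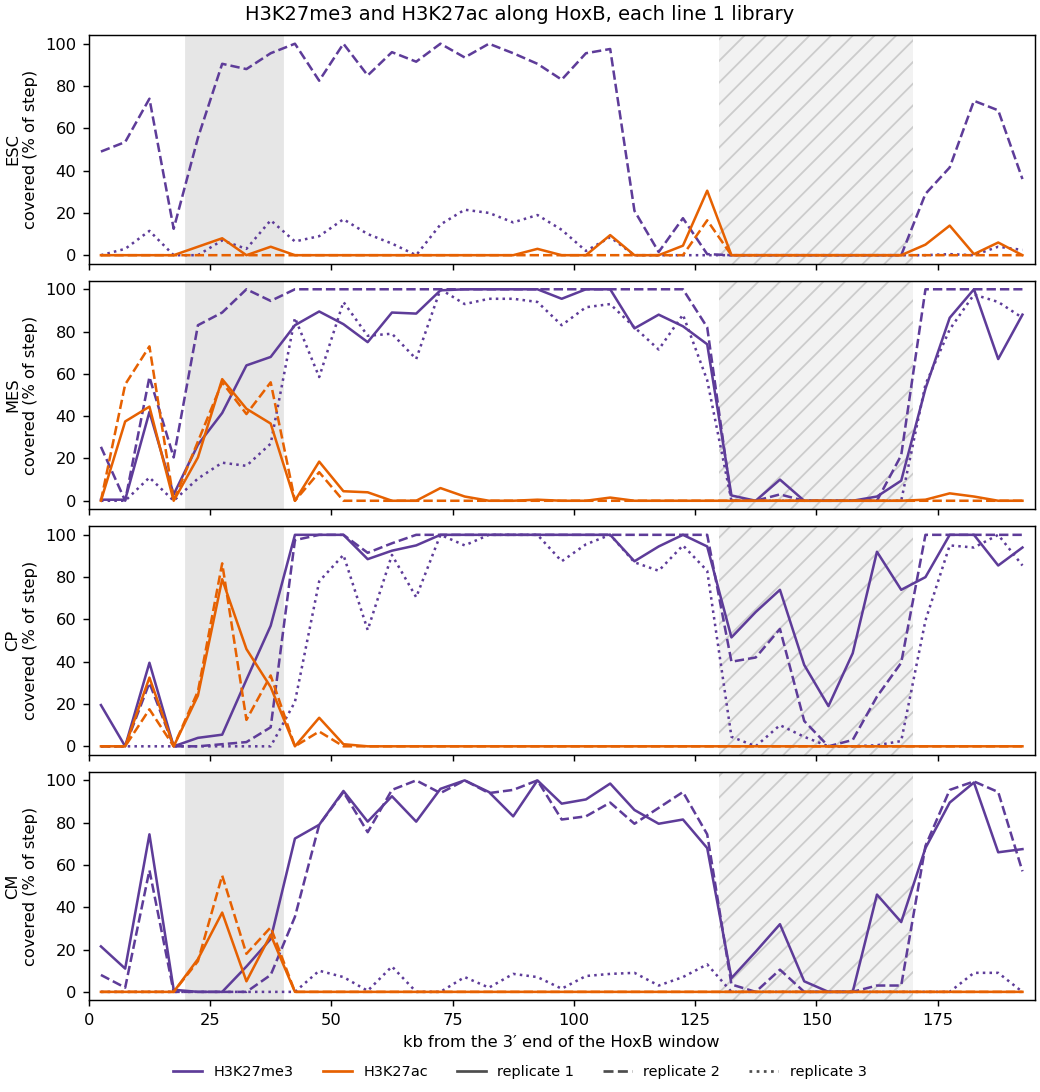
Share of each 5 kb step of HoxB covered (y axis, %) by H3K27me3 and H3K27ac against the distance from the 3′ end (x axis, kb), 1 line per library and 1 panel per stage. The grey band marks 20 to 40 kb, where H3K27ac covers 21.2 to 45.2% at MES, CP and CM and H3K27me3 covers 0 to 24.5% at CP and CM; the hatched band marks 130 to 170 kb.

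The difference between the 3′ and 5′ sides of HoxB in H3K27ac was −2.62 and −0.85 points at ESC, 13.7 and 16.5 at MES, 11.5 and 9.38 at CP, and 4.36 and 6.05 at CM. No library of one stage overlapped another stage. The exact permutation test gave p = 0.00952, the smallest that 105 arrangements allow, and an adjusted p = 0.0762 over the 8 tests, which does not pass 0.05. Joining regions less than 1 kb apart, or leaving out regions under 500 bases, gave an adjusted p = 0.0381 by the exact test. Over the whole HoxB window, H3K27ac covered 2.28 and 0.42% at ESC, 7.26 and 8.27% at MES, 5.74 and 4.69% at CP, and 2.18 and 3.03% at CM, with an exact permutation p = 0.019 and an adjusted p = 0.190; 17.3% of 120 kb tiles with the mark had an unadjusted p at or under 0.05.

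A second acetylated interval at the very 3′ end of HoxB was seen at MES. Steps 2 and 3, at 5 to 15 kb (chr11:96225001-96235000), were picked because they held H3K27ac in every MES library and in no ESC library; the mark covered none of them at ESC, 41 and 64% at MES, 16.2 and 8.75% at CP and none at CM. H3K4me1 covered 29, 0 and 0% there at ESC, 75.5, 97.5 and 97% at MES, 62.8 to 85.2% at CP, and 5.5, 5.75 and 29.2% at CM. H3K4me3 covered 12 and 8.25% at ESC, 47.8 and 45.8% at MES, 32 and 19.2% at CP, and 14 and 10.5% at CM. At MES and CP both marks were above all ESC and CM libraries, unlike the 20 to 40 kb interval, where H3K4me3 at CM was also above ESC. The intervals were picked by H3K27ac at different stages, and the other marks may follow that choice. The contrast is therefore a description, and its frequency in the genome was not counted.

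In HoxA the acetylated steps lay at 5 to 15 kb (steps 2 and 3, chr6:52105001-52115000), chosen as the neighbouring steps with H3K27ac in every MES and CP library. H3K27ac covered 20 and 12.2% of them at ESC, 38.5 and 16.8% at MES, 42.8 and 40% at CP, and 12.2 and 48.8% at CM, so the CM libraries spanned the whole range. H3K4me3 covered 26.8 and 28% at ESC, 69.2 and 68.5% at MES, 70 and 71.5% at CP, and 48.2 and 45.8% at CM. ESC, CM and the stages between them did not overlap. The steps were picked by H3K27ac, which H3K4me3 may follow, so this is a description. How often such a separation occurs elsewhere in the genome was not counted. RNAPII Ser5P covered 6.5% in the ESC library, 8.25 and 12.5% at MES, 13 and 30.2% at CP, and 4.75 and 14.8% at CM.

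H3K27me3 in the same HoxA steps covered 63.5 and 1.75% at ESC, 68.8, 90.5 and 50% at MES, 36.8, 35.8 and 0% at CP, and 42.2, 25.8 and 0% at CM. From 20 kb to the 5′ end of HoxA it covered 79.9 and 8.95% at ESC, 82.0 to 98.4% at MES, 86.7 to 98.2% at CP, and 80.2, 85.05 and 6.6% at CM. Every library of all stages had less of the mark in the 3′ steps than from 20 kb onward, so this was not particular to CP and CM. H3K4me1 covered 34.8, 0.25 and 1.5% of the 3′ steps at ESC, 57.8 to 76.2% at MES, 56.8 to 73.5% at CP and 12.2 to 28% at CM.

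**Figure D4:**
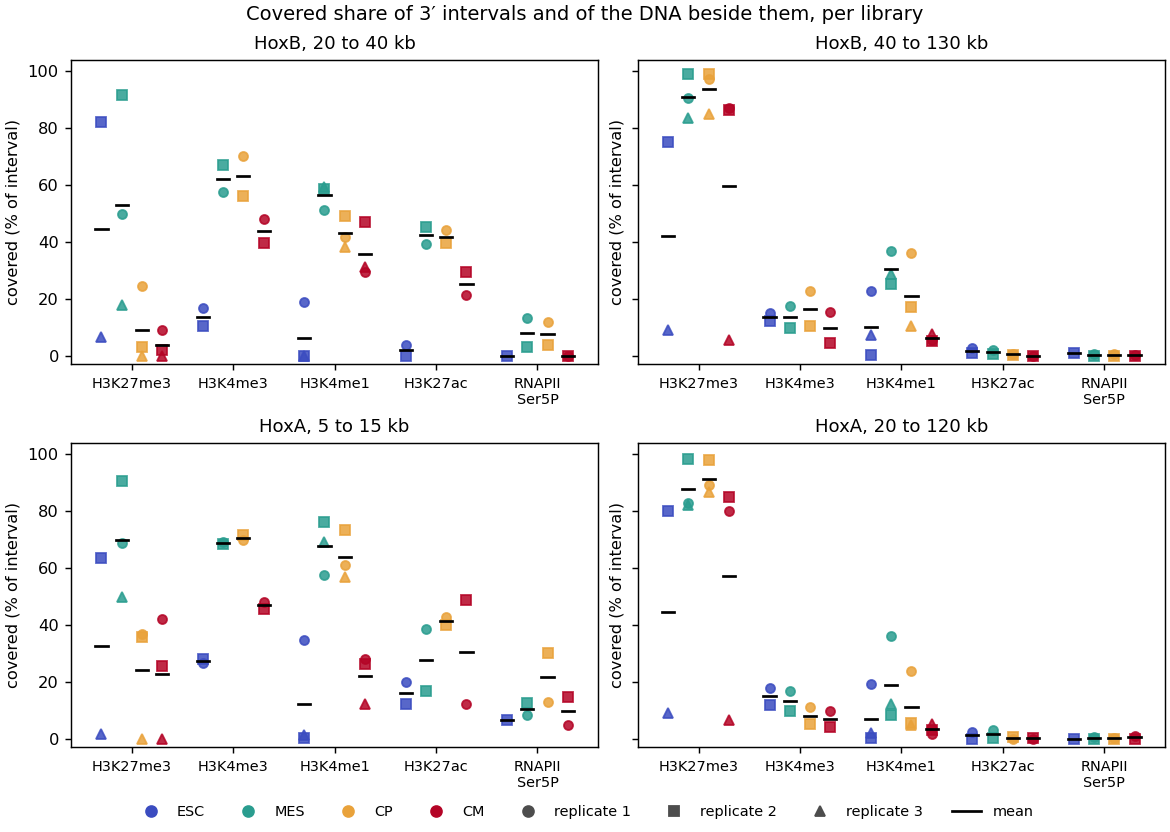
Covered share (y axis, %) of the acetylated intervals of HoxB and HoxA (left) and of the DNA 5′ of them (right), by mark (x axis); each point is 1 library, its colour the stage, its shape the replicate number, and black bars are means. At CP H3K27me3 covers 0 to 24.5% of the HoxB interval, against 85.1 to 99.2% of the adjoining 90 kb. At CM it covers 0 to 9.25% of the interval, against 5.75 to 87.1% of the 90 kb.

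HoxC and HoxD had no step with H3K27ac in every library at any stage. In HoxC the mark covered 2 and 0% at ESC, 2.33 and 0% at MES, and 0% in both CP and both CM libraries. In HoxD it covered 2.52 and 0% at ESC, 5.54 and 0% at MES, 0.208 and 0% at CP and 0% at CM; the libraries above 0 at ESC and MES were both replicate 1, whose lists hold 73186 and 62772 regions against 32222 and 25170 in replicate 2. The part of list size in these values was not tested. The covered share of HoxC minus the mean of the other 3 clusters in the same library was −0.82 and −0.48 points at ESC, −4.10 and −3.32 at MES, −3.17 and −3.08 at CP, and −1.07 and −2.56 at CM. The exact test of stages on the HoxC share itself gave p = 1. On the difference the exact test gave p = 0.00952, the smallest possible, and an adjusted p = 0.0762 over 8 tests; with HoxC at 0% in 6 of 8 libraries, this difference follows the values of the other clusters and is no test of HoxC.

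H3K4me3 in HoxC was lowest at CP and CM. It covered 15.2 and 11.6% of the cluster at ESC, 13.7 and 8.19% at MES, 4.5 and 0.63% at CP, and 5.48 and 2.07% at CM. The ESC and MES libraries lay above all CP and CM libraries, but the exact permutation test over stages gave p = 0.0762 and an adjusted p = 0.305. In the other 3 clusters the mark covered 9.42 to 17.4% at ESC and 6.38 to 14.7% at CM, with ESC and CM libraries that overlapped in HoxB and HoxD but not in HoxA, and an adjusted p between 0.586 and 1; of the 120 kb tiles with H3K4me3, 9.71% had an unadjusted p at or under 0.05.

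Taken step by step, 12 of the 90 Hox steps with H3K4me3 in at least 1 library had it in every ESC library and in no CM library, and are called lost (13.3%), against 28% of all such steps in the genome. These counts depend on the libraries and on list size: 25 steps lost the mark without replicate 1, 19 without replicate 2, and 3 with an equal number of top regions per list, where 12 gained it. Of the 12 steps lost with all regions, 8 were in HoxC, 3 in HoxB, 1 in HoxA and 0 in HoxD. In HoxC 5 of them formed runs at 85 to 95 kb (chr15:102780001-102790000) and 105 to 120 kb (chr15:102755001-102770000) from the 3′ end, and the other 3 lay at 0 to 5, 50 to 55 and 130 to 135 kb. From MES to CP, 4 steps lost H3K4me3, all in HoxC (4.44% of 90, against 0.857% in the genome). A single step, in HoxD at 105 to 110 kb, had the mark in every CM library and in no ESC library, and is called gained, 1.11% of the 90, against 1.67% in the genome.

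From ESC to MES, 5 of the 90 steps gained H3K4me3 in this sense (5.56%, against 0.968% in the genome) and 3 lost it (3.33%, against 26.1%). The steps that gained it were HoxA at 0 to 5 kb and HoxB at 5 to 10, 40 to 45 and 80 to 90 kb. For H3K27ac, 6 of 61 steps were gained from ESC to MES (9.84%, against 4.97%), at 0 to 5 and 10 to 15 kb in HoxA and at 5 to 15, 30 to 35 and 45 to 50 kb in HoxB. The step at 125 to 130 kb in HoxB was the 1 step that lost H3K27ac, with 1.64% of 61 against 10.4%. By CM, 1 H3K27ac step of 61 was gained relative to ESC (1.64%, against 7.75%), at 30 to 35 kb in HoxB; without replicate 1 the count was 7, and without replicate 2 the count of lost steps was 28.

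H3K4me1 covered more of each cluster at MES than at ESC or CM on average. In HoxB it covered 17.8, 0.82 and 5.71% at ESC, 30.3, 27.5 and 29.4% at MES, 27.2, 17.1 and 14.9% at CP, and 5.86, 7.47 and 8.99% at CM. The MES libraries lay above all others in HoxB, with p = 0.00773 by the exact permutation test and an adjusted p = 0.155. In HoxA the means were 7.22 ± 10.8% at ESC, 26.4 ± 10.1% at MES, 19.99 ± 7.15% at CP and 4.77 ± 0.921% at CM (SD, n = 3 each), with an exact permutation p = 0.0374 and an adjusted p = 0.249. Without replicate 1, whose list is the longest at ESC, MES and CP, the adjusted p was 0.0381 in both clusters, and the difference of CM from ESC changed its sign, from −0.68 to 4.97 points in HoxB and from −2.44 to 4.29 in HoxA. Such p-values are frequent for this mark, since 44.2% of 120 kb tiles had an unadjusted p at or under 0.05.

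H3K4me1 in HoxC covered 19.3, 0.24 and 5.2% at ESC, 26.4, 17.7 and 17% at MES, 11.1, 1.57 and 0.2% at CP, and 2.72, 2.33 and 4.63% at CM. In HoxD it covered 0.58 to 11% at ESC, 13.3 to 30.9% at MES, 1.35 to 20.9% at CP and 4.06 to 5.85% at CM. The adjusted p was 0.305 for HoxC and 0.397 for HoxD by the exact test. Of the Hox steps with the mark, 5 were gained from ESC to MES (4.85%, against 8.58% in the genome), 3 of them in HoxD.

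RNAPII Ser5P covered little of any cluster. In HoxA it covered 0.54% in the ESC library, 1.25 and 1.04% at MES, 1.46 and 2.52% at CP, and 1.23% in both CM libraries. The other clusters had 0 to 1.68% in any library, and in HoxC and HoxD all 4 libraries of replicate 2 had 0%. No cluster passed the exact test, with adjusted p between 0.431 and 1, and no unadjusted p was under 0.05; the share of 120 kb tiles with one was 13.9%. From CP to CM, 3 of 44 steps lost the mark (6.82%, against 8.94%), namely HoxB at 25 to 35 kb and HoxA at 10 to 15 kb.

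Hox steps with H3K4me3 were compared with all such steps of the genome for H3K27me3. Of the steps with H3K4me3 in every library of a stage, 60 of 71 had H3K27me3 in every library at ESC (84.5%), 66 of 67 at MES (98.5%), 34 of 41 at CP (82.9%) and 36 of 48 at CM (75%). Over all such steps of the genome the shares were 4.19, 19.2, 20.9 and 5.7%. Without the sparse libraries it was 71 of 71 at ESC and 45 of 48 at CM (93.8%), against 11.9 and 16.7% in the genome. Where regions under 500 bases are left out, the Hox share was 4.84% at ESC and 0% at CM; the median region length was 100 bases in both sparse lists. Of all 114 Hox steps, with or without H3K4me3, 71.9, 88.6, 86.0 and 71.9% had H3K27me3 in every library at ESC, MES, CP and CM, so the H3K4me3 steps were below this share at CP and close to it at CM. Where a mark must cover at least 50% of a step, the share of H3K4me3 steps was 16.7% at MES and 0% at CP and CM. At CM 2 Hox steps held H3K4me3 in every library and H3K27me3 in none, both in HoxB. Both marks in a 5 kb step need not lie on the same chromosome or in the same cell.

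The reverse held for H3K27ac. Of the same H3K4me3 steps, 2 of 71 had H3K27ac in every library at ESC, 11 of 67 at MES, 8 of 41 at CP and 5 of 48 at CM, against 47.3, 69.5, 60 and 63.9% in the genome. Of the acetylated Hox steps, 10 of 11 also had H3K27me3 in every MES library (6.31% in the genome), 1 of 8 in every CP library (3.98%) and 0 of 5 in every CM library (0.317%). CP replicate 3 and the sparse CM replicate 3 set the low values, since without replicate 3 it was 7 of 8 at CP and 2 of 5 at CM. The number of steps with H3K4me3 in every library was 18 at ESC, 14 at MES, 3 at CP and 10 at CM in HoxC, and 18, 16, 13 and 16 in HoxD, with H3K27me3 in every library on all of them in HoxC at MES, CP and CM.

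**Figure D5:**
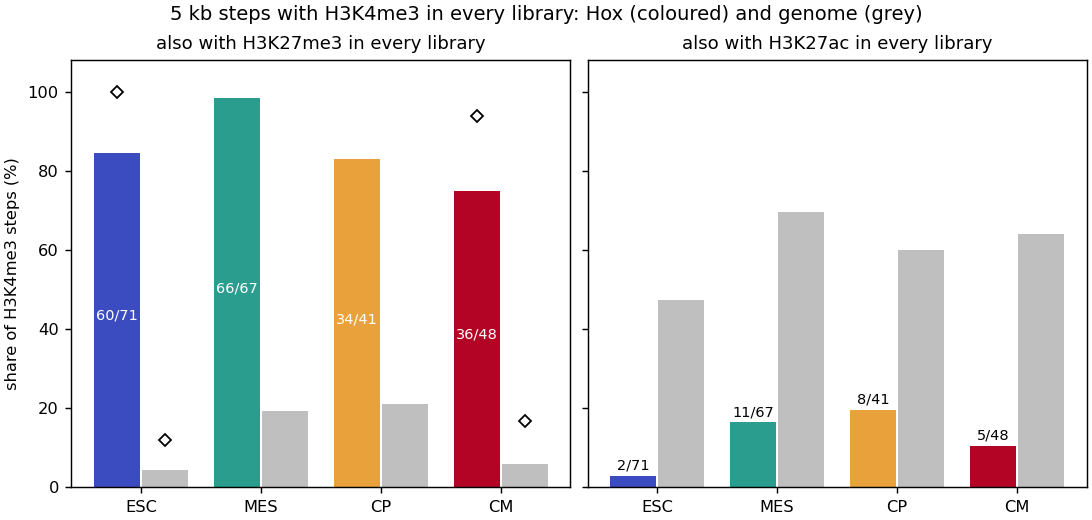
Share of 5 kb steps with H3K4me3 in every library (y axis, %) that also hold H3K27me3 (left) or H3K27ac (right) in every library, by stage (x axis), for the Hox clusters (coloured bars, with counts) and the genome (grey bars). Diamonds give the shares without the sparse H3K27me3 libraries; at every stage the Hox bars are above the genome for H3K27me3 (75% or more) and below it for H3K27ac.

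The longest stretch without marks of activity was in HoxB. From 130 to 170 kb (chr11:96070001-96110000, steps 27 to 34, chosen after the data had been seen) no library of any stage had H3K4me3, H3K4me1, H3K27ac or RNAPII Ser5P. Single steps of this kind were at 100 to 105 kb in HoxB, 35 to 40 kb in HoxA and 0 to 5 kb in HoxD. H3K27me3 covered 0% of the stretch in both ESC libraries, 3, 3.06 and 0% at MES, 57.1, 26.9 and 2.75% at CP, and 17.7, 2.5 and 0% at CM. Every CP library had some H3K27me3 there, but CP replicate 3 lay below the highest MES library. The step at 145 to 150 kb had H3K27me3 in every CP library and in no MES library, the 1 step of 114 so called (0.877%, against 1.45% in the genome). Beyond the stretch, from 170 kb to the 5′ end, H3K27me3 covered 78.9 to 100% at MES and 86.8 to 100% at CP, and H3K4me3 covered 16.6 and 17.6% at ESC, 10.1 and 7.8% at MES, 4.5 and 0% at CP, and 4.5 and 0.8% at CM.

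Few other Hox steps were called gained or lost between stages. For H3K27me3, 0 of 114 Hox steps were gained and 0 lost from ESC to MES (6.13 and 0.268% in the genome), and 0 lost between MES and CP (0.325%). At ESC 82 of the 114 steps already held the mark in every library. No step with the mark in any ESC library can be called gained, so few steps were open to a gain. Between CP and CM no step of the clusters was gained or lost, where the genome had 0.0804 and 4.05%. From ESC to CM 0 were gained (1.11%) and 1 was lost (0.877%, against 0.903%), at 25 to 30 kb in HoxB, inside the acetylated interval. Without the sparse libraries 4 were gained and 2 lost from ESC to CM.

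For H3K4me3, 0 of 90 steps were gained from MES to CP (0.723% in the genome), and from CP to CM 2 were gained (2.22%, against 1.06%) and 1 lost (1.11%, against 0.775%). The 2 gained steps were in HoxC, at 65 to 70 and 75 to 80 kb, and were 2 of the 4 that had lost the mark from MES to CP; the lost step was at 40 to 45 kb in HoxB, where the mark had been gained from ESC to MES. For H3K27ac, the step from MES to CP brought 0 gains and 1 loss among 61 (3.31 and 5.34% in the genome). That from CP to CM brought 0 gains and 2 losses (5.36 and 3.99%). The steps that lost H3K27ac were all in HoxB, at 5 to 10 kb from MES to CP and at 10 to 15 and 45 to 50 kb from CP to CM, and all 3 had gained it from ESC to MES.

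For H3K4me1, 0 of 103 steps were lost from ESC to MES (4.55% in the genome). Between MES and CP there were 0 gains and 5 losses (2.32 and 3.59%), and between CP and CM again 0 gains and 5 losses (2.84 and 2.91%). From ESC to CM 0 were gained and 1 lost (8.25 and 6.53%), and without replicate 1 the count gained was 16. For RNAPII Ser5P, 1 of 44 steps was gained and 0 lost from ESC to MES (5 and 23.5% in the genome), at 35 to 40 kb in HoxB, and 0 were gained or lost from MES to CP (2.49 and 4.98%). From CP to CM 0 were gained (0.908%), and from ESC to CM 0 were gained and 1 lost (2.4 and 45.7%).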

How the data were processed

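Enriched regions from chromatin immunoprecipitation with sequencing were analysed for 46 libraries of 5 marks; 8 whole cell extract libraries had no list here and were not used. Per the submitters' processing notes, reads were aligned with Bowtie to mm9, with no version; the region caller and its threshold are not given in the sources used here. Each deposited list gives positions, a peak height and the totals of target and background signal, made by the authors with a scaling that is not stated; 1 list has no header line and was read by the column order of the others, which its positions and lengths fit in every row. Peak height served only to rank regions within a list. Read counts were not used here, so depth is unknown and no counting interval is given; p-values measure only the spread between the samples, which may be technical, since the labels do not say that libraries came from separate cultures.

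From the regions, the covered share of each window, of its 3′ and 5′ sides and of 5 kb steps was computed (Python 3.11.15, numpy 2.4.6, pandas 2.3.3). A step holds a mark where at least 1 base is covered; it is gained or lost where the mark is in no library of one stage and in every library of the other. Genome percentages are over all 5 kb steps with the mark in at least 1 library. Stages were compared by an exact permutation test of stage labels over libraries, with 15400 arrangements for H3K27me3 and H3K4me1 (smallest p 6.49e-05) and 105 for the other marks (smallest p 0.00952), adjusted by Benjamini-Hochberg within each kind of measure, and called at 0.05. The test was tested on simulated data. Replicate numbers come from the labels. Same-numbered libraries of different stages deviated together (r over 0.1) for H3K27me3 in 15 of 15 pairs, r 0.238 to 0.752. Its pairs of different number ranged from −0.752 to 0.613. The counts were 12 of 12 for H3K4me3, 6 of 6 for RNAPII Ser5P, 9 of 18 for H3K4me1 and 6 of 12 for H3K27ac. Where a stage has only a pair of libraries, their deviations are mirror images. For H3K4me3, H3K27ac and RNAPII Ser5P each r is therefore counted more than once, and the counts are not of separate values.

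The members and windows were chosen with earlier results of these data known, and the intervals within HoxA and HoxB after the data had been seen. Named were the 38 member genes, runs of at least 2 steps gained or lost from ESC to CM and the longest regions; other steps and intervals were chosen after their values were seen. Other settings tried were lists cut to one length by peak height, joined or longer regions, shorter windows, another scale, other presence rules, the replicate block and libraries left out.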

Additional observations from a re-analysis of the deposited data

How the results depend on the processing

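Of 417 recomputed values, 299 kept their direction and their side of the threshold or lay close to the value reported. Values below are the CM mean minus the ESC mean, in percentage points, and the cause of each shift was not tested unless stated. The replicate block changed 2 of 36 calls and no other: the HoxC share of H3K27me3 (16.6, adjusted p = 0.0347) and the HoxB difference of the sides in H3K27me3 (−28.9, adjusted p = 0.0139) passed the threshold by the exact test. As a share of all covered bases of a library, differences changed sign to −0.42 in HoxA, −0.54 in HoxB and −0.26 in HoxD for H3K27me3. The same scale gave 0.0044 in HoxA, 0.028 in HoxB and 0.0099 in HoxD for H3K4me3, 0.0042 in HoxB for H3K4me1 and 0.0027 in HoxB for RNAPII Ser5P. Without the sparse libraries, chosen after seeing the data, the HoxA share of H3K27me3 turned to −0.61. By the exact test the HoxB difference of the sides was then −50.5 (adjusted p = 0.00635) and HoxA minus the other 3 clusters −3.63 (adjusted p = 0.0381).

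With regions closer than 1 kb joined, HoxD H3K4me1 turned to −0.74 and the HoxA difference of the sides in H3K27me3 to 6.51. By the exact test the HoxB difference of the sides passed for H3K27me3 at −41.9 (adjusted p = 0.00675) and for H3K27ac at 7.42 (adjusted p = 0.0381). With windows shortened by 10 kb at both ends, HoxB H3K4me3 turned to 0.093, HoxD H3K4me1 to −0.55 and the HoxA difference of the sides in H3K27me3 to 0.33. With regions of at least 500 bases, HoxB H3K4me3 turned to 0.0064, and the difference of the sides passed in HoxC for H3K27me3 at 1.54 and in HoxB for H3K27ac at 6.47 (exact test, adjusted p = 0.0381 for both). With an equal number of top regions, shares turned to 5.25 in HoxB and 2.30 in HoxD for H3K4me3, 0.48 in HoxA and 1.13 in HoxB for H3K4me1 and 0.12 in HoxB for RNAPII Ser5P. The same setting turned HoxA minus the others in H3K27me3 to 0.44, and HoxC minus the others passed for H3K27me3 at 8.16 and for H3K27ac at −1.03 (exact test, adjusted p = 0.0418 for both).

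Leaving out each replicate number in turn moved the share of H3K27me3 from −1.20 to 32.7 in HoxA and from −1.81 to 25.0 in HoxB. It moved H3K4me3 in HoxB from −2.64 to 1.88. It moved H3K4me1 from −6.05 to 4.29 in HoxA, −4.35 to 4.97 in HoxB, −8.56 to 0.76 in HoxC and −1.58 to 3.95 in HoxD. It moved H3K27ac from −2.62 to 3.62 in HoxA, −0.10 to 2.60 in HoxB and −2.00 to 0 in HoxC. The difference of the sides in H3K27me3 lay between −50.5 and −6.33 in HoxB and between −2.04 and 11.2 in HoxD, and in H3K27ac between −1.83 and 7.25 in HoxA and between 0 and 2.22 in HoxC. A cluster minus the others lay between −3.63 and 2.29 for HoxA and −2.66 and 1.02 for HoxD in H3K27me3, and between −1.08 and 2.76 for HoxA and −2.08 and −0.25 for HoxC in H3K27ac.

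Counts of steps from ESC to CM under the same omissions were 0 to 14 gained and 1 to 2 lost for H3K27me3, 2 to 4 gained and 19 to 25 lost for H3K4me3, 0 to 16 gained and 1 to 11 lost for H3K4me1, and 1 to 7 gained and 1 to 28 lost for H3K27ac. With an equal number of top regions they were 3 gained and 4 lost for H3K27me3, 12 gained and 3 lost for H3K4me3, 4 gained for H3K4me1, 4 gained for H3K27ac, and 1 gained and 0 lost for RNAPII Ser5P. With a majority of libraries they were 4 gained and 2 lost for H3K27me3, and 19 gained and 17 lost for H3K4me1. Without the sparse libraries H3K27me3 had 4 gained and 2 lost. With regions of at least 500 bases, H3K27me3 had 0 lost, H3K4me3 had 2 gained and 20 lost, H3K4me1 had 2 gained and H3K27ac had 3 gained. With at least 50% of a step covered, 0 were lost for each mark, 2 were gained for H3K4me3 and 0 for H3K27ac.

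The share of H3K27ac steps with H3K27me3 moved most: 0 to 100% at ESC, 27.3 to 87.5% at CP and 0 to 40% at CM with a replicate number left out. A majority of libraries gave 87.5% at CP and 40% at CM, the omission of the sparse libraries 100% at ESC and 40% at CM, and an equal number of top regions 60% at MES. With regions of at least 500 bases it was 0% at CP, and the share of H3K4me3 steps with H3K27me3 was 4.84% at ESC and 0% at CM. With at least 50% of a step covered, the share of H3K4me3 steps was 16.7% at MES and 0% at CP and CM, and that of H3K27ac steps was 0% at MES and CP; at ESC no Hox step of either mark was left, nor at CM for H3K27ac. Without replicate 2 no RNAPII Ser5P library of ESC remains, and marks with 1 library per stage left have no test. Unknown depth limits every value.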
